A study of Mus musculus with 4 samples.

Results

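A list of 36 mouse genes of the integrated stress response and of the unfolded protein response of the endoplasmic reticulum (ER) was followed across 4 arrays of melan-a melanocyte cultures. The list names ATF4 and its targets, the ER stress transcription factors and the ER chaperones, with amino acid transporters left out. For each gene the brightest probe set on average was read, and 35 of the 36 genes had a probe set that the platform annotation assigns to 1 gene. Pycr1 had none and is not reported, so 35 of the 18193 genes on the arrays are described. All 35 read at or above the array median on every array and passed the filter on low levels in every comparison.

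Melan-a is an established line of mouse melanocytes, and RNA was taken from bulk cultures. Stock cultures grew with TPA and cholera toxin, and all 4 were then starved in medium with dialyzed serum, 3 of them with 100 ng/ml EGF (epidermal growth factor) for 14 days. The groups were 3 with EGF, namely Hmhi-MYC-TA, Hmhi-Miz1 kd and Hmhi cells, and Hmhi cells starved for 14 days, each measured on 1 array. The source name of the Miz1 kd cells reads Hmhi-pS-Miz1, and the labels spell out neither Hmhi, MYC-TA nor pS. The series title names Myc, Miz-1, senescence of melanocytes and cystathionase. With 1 array per group there is no spread between replicates and no test, so each difference is one between 2 arrays and not between conditions. A level from fewer cells of a type and one from less RNA per cell cannot be told apart in bulk RNA.

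When cells meet amino acid shortage, oxidants or misfolded protein, stress kinases phosphorylate the initiation factor eIF2. General translation then falls while the Atf4 message is translated more, and ATF4 protein, paired with C/EBP factors, switches on genes of amino acid synthesis, redox balance and stress feedback. Misfolded protein in the ER also acts through IRE1, which splices the Xbp1 message, and through ATF6, which is cut and moves to the nucleus, and these raise chaperones and the disposal machinery of the ER. Melanocytes fold and export large amounts of melanosomal glycoproteins such as tyrosinase through the ER. The arrays read messages only, not ATF4 protein, Xbp1 splicing or ATF6 cleavage.

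All values are log2 signals, and a log2 difference of 1 is 2-fold. The median of every array was 6.66. The technical SD between probe sets of 1 gene was 0.32 for Hmhi EGF minus Hmhi starved, 0.22 for the Miz1 kd-labelled array minus Hmhi EGF, 0.25 for MYC-TA minus Hmhi EGF and 0.41 for MYC-TA minus the Miz1 kd-labelled array. It holds no difference between cultures. Zbtb17, which encodes Miz-1, read 8.71 in MYC-TA, 9.07 in the Miz1 kd-labelled array, 8.72 in Hmhi EGF and 8.73 in Hmhi starved, so the transcript was not lower in the array labelled as its knockdown. What is said of that array holds for the array under its label only. Myc read 9.78 in MYC-TA, 10.79 in the Miz1 kd-labelled array, 10.60 in Hmhi EGF and 10.64 in Hmhi starved. Of 11 melanocyte markers, 8 were at or above the median on all arrays, and Tyr was below it on all. The log2 of their summed signal was 14.48 in MYC-TA, 14.97 in the Miz1 kd-labelled array, 14.76 in Hmhi EGF and 15.21 in Hmhi starved. Among fibroblast markers Col1a1, Dpt and Lum were below the median on all arrays, while Pdgfra and Dcn were above it. The fibroblast sum was 11.77 in MYC-TA, 10.26 in the Miz1 kd-labelled array, 10.82 in Hmhi EGF and 11.70 in Hmhi starved. Of 5 keratinocyte markers, Krt5 alone was above the median on all arrays. The part of these markers in the results was not tested.

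The promoters were searched for binding motifs because 2 families of members are known targets of different factors. RefSeq windows (GRCm38.p6) of 250 bases before to 50 bases after the annotated start were at hand for 33 of the 36 genes (35 windows, as some genes have several starts). Atf6, Eif4ebp1 and Hyou1 had no entry. The C/EBP-ATF response element, searched as TGATGNAA on both strands, is the site that ATF4 binds with a C/EBP partner. It lay in the windows of Asns, Atf3, Chac1, Got1, Herpud1, Nupr1, Pycr1 and Trib3, which are 8 of 33 genes (24.2%), against 4.51% of all 27025 genes with a window. The ER stress response element, searched as CCAAT and CCACG with 9 bases between them on both strands, is bound by NF-Y and ATF6. It lay in the windows of Calr, Creld2, Dnajc3, Hsp90b1 and Hspa5, which are 5 of 33 genes (15.2%), against 0.137% of all genes with a window. Hsp90b1 held it at 2 places. No match of either motif overlapped a match of the other. TGACGTGG, a core of the unfolded protein response element of XBP1 and ATF6, was in the windows of 0 of 33 genes, against 0.714% of all, which says only that these letters are not there. As the list holds known targets of these factors, a share above that of all genes may follow from how the list was chosen. A match is a description of letters and not a site shown to be bound.

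The 6 windows below belong to the members with a motif and the largest differences in each comparison. They are printed from 5′ to 3′ along the gene, with the motif in capitals: the C/EBP-ATF response element in Trib3, Nupr1, Chac1 and Got1, and the ER stress response element in Dnajc3 and Creld2. The element runs in reverse in Trib3, Nupr1, Chac1, Got1 and Creld2.

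Trib3, chr2:152344011-152344310, minus strand: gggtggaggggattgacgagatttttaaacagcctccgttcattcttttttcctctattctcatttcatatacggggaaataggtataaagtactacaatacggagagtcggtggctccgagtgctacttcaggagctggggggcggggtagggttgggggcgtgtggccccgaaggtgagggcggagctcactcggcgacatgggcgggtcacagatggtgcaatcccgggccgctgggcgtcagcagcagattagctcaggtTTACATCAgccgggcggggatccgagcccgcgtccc

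Nupr1, chr7:126625421-126625720, minus strand: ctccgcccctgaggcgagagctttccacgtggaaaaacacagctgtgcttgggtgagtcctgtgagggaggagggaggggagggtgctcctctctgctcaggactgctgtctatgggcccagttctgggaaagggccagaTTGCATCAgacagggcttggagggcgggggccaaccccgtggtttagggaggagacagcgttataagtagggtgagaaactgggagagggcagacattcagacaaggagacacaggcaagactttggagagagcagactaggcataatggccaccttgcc

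Chac1, chr2:119350992-119351291, plus strand: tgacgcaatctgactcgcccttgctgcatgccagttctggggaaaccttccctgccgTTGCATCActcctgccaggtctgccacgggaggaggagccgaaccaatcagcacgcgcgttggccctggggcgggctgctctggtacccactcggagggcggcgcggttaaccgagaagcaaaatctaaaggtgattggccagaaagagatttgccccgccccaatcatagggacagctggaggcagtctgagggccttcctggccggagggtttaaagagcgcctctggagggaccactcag

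Got1, chr19:43524556-43524855, minus strand: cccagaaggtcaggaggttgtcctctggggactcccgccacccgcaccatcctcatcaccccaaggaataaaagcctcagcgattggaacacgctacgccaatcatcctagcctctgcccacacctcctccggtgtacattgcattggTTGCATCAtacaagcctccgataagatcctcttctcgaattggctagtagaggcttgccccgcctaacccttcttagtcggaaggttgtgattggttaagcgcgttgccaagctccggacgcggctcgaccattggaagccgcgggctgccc

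Dnajc3, chr14:118937682-118937981, plus strand: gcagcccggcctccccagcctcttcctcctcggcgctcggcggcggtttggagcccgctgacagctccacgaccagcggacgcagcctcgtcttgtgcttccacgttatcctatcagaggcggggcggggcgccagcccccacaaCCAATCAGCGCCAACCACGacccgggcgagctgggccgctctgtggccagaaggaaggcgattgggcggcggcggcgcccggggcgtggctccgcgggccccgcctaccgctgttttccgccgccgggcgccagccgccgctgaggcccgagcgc

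Creld2, chr15:88819396-88819695, plus strand: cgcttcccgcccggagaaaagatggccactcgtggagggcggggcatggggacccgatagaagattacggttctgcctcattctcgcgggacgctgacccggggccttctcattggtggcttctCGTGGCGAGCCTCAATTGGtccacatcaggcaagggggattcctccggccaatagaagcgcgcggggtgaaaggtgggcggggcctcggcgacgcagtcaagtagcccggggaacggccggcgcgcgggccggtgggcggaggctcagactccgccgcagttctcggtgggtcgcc

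The element began 14 bases after the start in Trib3, 110 bases before it in Nupr1, 193 before it in Chac1 and 102 before it in Got1. In Dnajc3 it began 105 bases before the start and in Creld2 126 before it. Asns, which is not printed, held the C/EBP-ATF element 23 bases before its start, and Hspa5 the ER stress element 65 before.

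**Figure D1:**
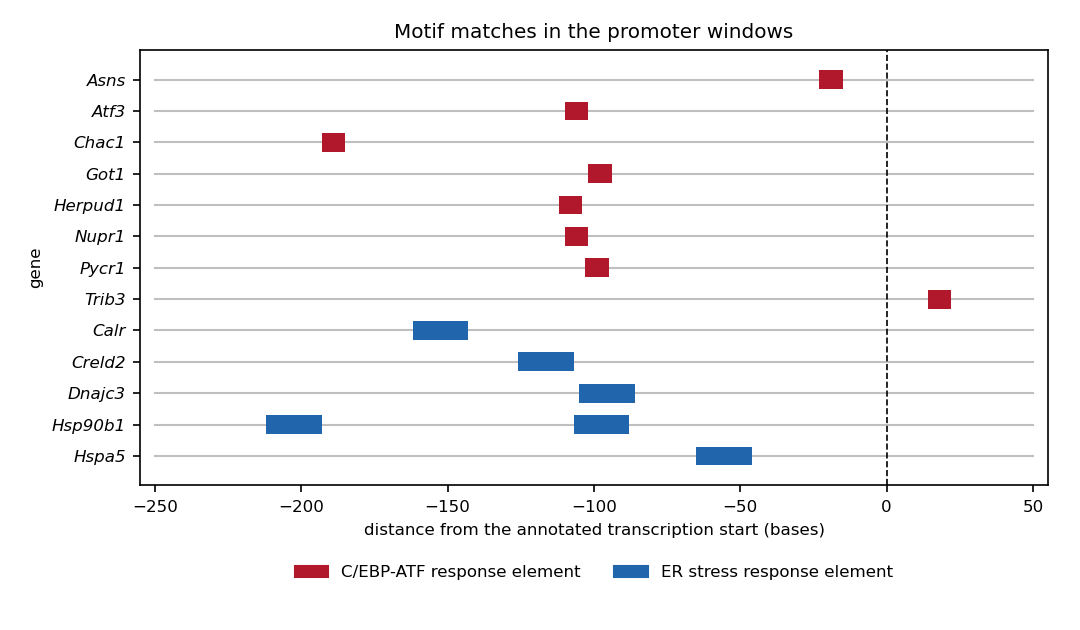
Position of each motif match (bars, drawn at the length of the motif) along the promoter window of 13 genes (grey lines), with the distance from the annotated transcription start in bases on the x axis. Genes with the C/EBP-ATF element (red) are 7 ATF4-side genes and Herpud1, and the 5 genes with the ER stress element (blue) are ER chaperones or folding proteins.

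Hmhi EGF against Hmhi starved addresses the response to EGF. Trib3 was higher with EGF by 1.98 (3.94-fold), Nupr1 by 1.31 and Pdia4 by 1.04. Psat1 and Atf3 were lower with EGF, with log2 differences of -1.08 and -1.002. Of the 35 genes, 3 were at least 2-fold higher (8.57%), against 7.98% of all 11461 genes that passed the level filter, and 2 were at least 2-fold lower (5.71%), against 4.96%. At that threshold the list was close to the background. With the mean of all probe sets Pdia4 differed by 0.54. At 1.5-fold, 13 genes were higher (37.1%), against 16.7% of all genes, and 2 were lower (5.71%), against 13.3%. The median difference was 0.51 over the list and 0.006 over all genes. By role it was 0.65 for the ER chaperones, 0.47 for the transcription regulators, 0.31 for the feedback and secreted effectors and -0.06 for the amino acid enzymes. These medians depend on the probe set. With the mean of all sets they were 0.29 for the list, 0.32 for the chaperones, 0.18 for the regulators and -0.32 for the enzymes. The control sets of 18S rRNA moved with this comparison too, with a median of 13.09 in Hmhi EGF and 12.25 in Hmhi starved, and their part in the result was not tested.

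The Miz1 kd-labelled array was set against Hmhi EGF, both with EGF. The list divided in part by role in this comparison. ER chaperones were mostly lower, led by Dnajb9 at -0.89 and Dnajc3 at -0.83, and regulators and effectors of the ATF4 side were mostly higher. The amino acid enzymes were mixed, with 5 of 8 higher (62.5%, against 52.3% of all genes) and 2 lower, of which Gpt2 differed by -0.43. The largest higher values were Shmt2 at 0.76, Psph at 0.68 and Ddit3 at 0.65. None of the 35 genes was 2-fold apart, against 0.29% of all genes 2-fold higher and 2.5% 2-fold lower. At 1.5-fold, Shmt2, Psph and Ddit3 were higher (8.57%, against 2.15% of all 11394 genes), and Dnajb9, Dnajc3 and Sdf2l1 were lower (8.57%, against 6.99%). The median was 0.07 over the list and 0.02 over all genes. It was -0.51 for the ER chaperones, 0.24 for the amino acid enzymes, 0.19 for the feedback and secreted effectors and 0.15 for the transcription regulators. Of the 22 genes on the ATF4 side, 18 were higher (Psat1 was equal), and of the 11 chaperone and ERAD genes 9 were lower, while 52.3% of all genes were higher and 47.5% lower. By more than the technical SD, 10 of the 22 were higher, against 21.6% of all genes, and 8 of the 11 were lower, against 23.0%. Of 23 members with several passing probe sets, 11 had sets of opposite sign in this comparison, against 5 or 6 in each of the others. They were Atf4, Atf6, Cebpg, Eif4ebp1, Gpt2, Herpud1, Hsp90b1, Hspa5, Hyou1, Psat1 and Sel1l. With the mean of all sets, the chaperone median was -0.26, the enzyme median 0.13 and that of the list 0.005.

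MYC-TA against Hmhi EGF addresses the role of MYC-TA in the presence of EGF. Of the 8 amino acid enzymes measured, 5 were higher in MYC-TA by more than the technical SD (26.3% of all genes), led by Psat1 at 1.17 (2.25-fold), Aldh18a1 at 1.10 and Gpt2 at 1.01. Eif4ebp1 and Cebpg followed at 0.96 and 0.69, while Xbp1 was lower, at -0.58. The other Cebpg sets differed by 0.15 and 0.32, and the mean of its sets by 0.39, which is under 1.5-fold. The 3 genes at least 2-fold higher were 8.57% of the list, against 1.3% of all 11534 genes, and 0 were 2-fold lower, against 1.65%. At 1.5-fold, 7 were higher (against 7.3%) and 0 lower (against 7.03%). The list's median was -0.07 and that of all genes 0.045, so the higher genes were a minority. The amino acid enzymes had a median of 0.54, the feedback and secreted effectors 0.05, the transcription regulators -0.09 and the ER chaperones -0.18. Psat1 and Gpt2 were read on sets ending in _s_at and Aldh18a1 on one ending in _x_at, which can take up related transcripts. With sets ending in plain _at alone, which leave out Psat1, 0 members were 2-fold higher, and with the mean of all sets Gpt2 differed by 0.76.

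A direct comparison of MYC-TA with the Miz1 kd-labelled array used neither Hmhi EGF nor Hmhi starved. Gpt2 and Psat1 were higher in MYC-TA by 1.44 and 1.17, and Ddit3 was lower, at -1.06. The 2 higher genes were 5.71% of the list, against 6.72% of all 11613 genes, and the 1 lower gene was 2.86%, against 4.26%, so the list was near the background. At 1.5-fold, 7 were higher (against 17.0%) and 4 lower (11.4%, against 12.4%). The other Gpt2 sets differed by 1.04, 0.70 and 0.385, and the mean of its sets by 0.89, which is under 2-fold. With the mean of all probe sets, 1 member was 2-fold higher, as with plain _at sets alone. The enzyme median was then 0.60 with the mean of all sets, and that of the regulators 0.089. The median was 0.11 over the list, 0.27 over both the amino acid enzymes and the ER chaperones, -0.14 over the transcription regulators and 0.04 over all genes. The 4 comparisons share arrays, and the first 3 all use Hmhi EGF.

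**Figure D2:**
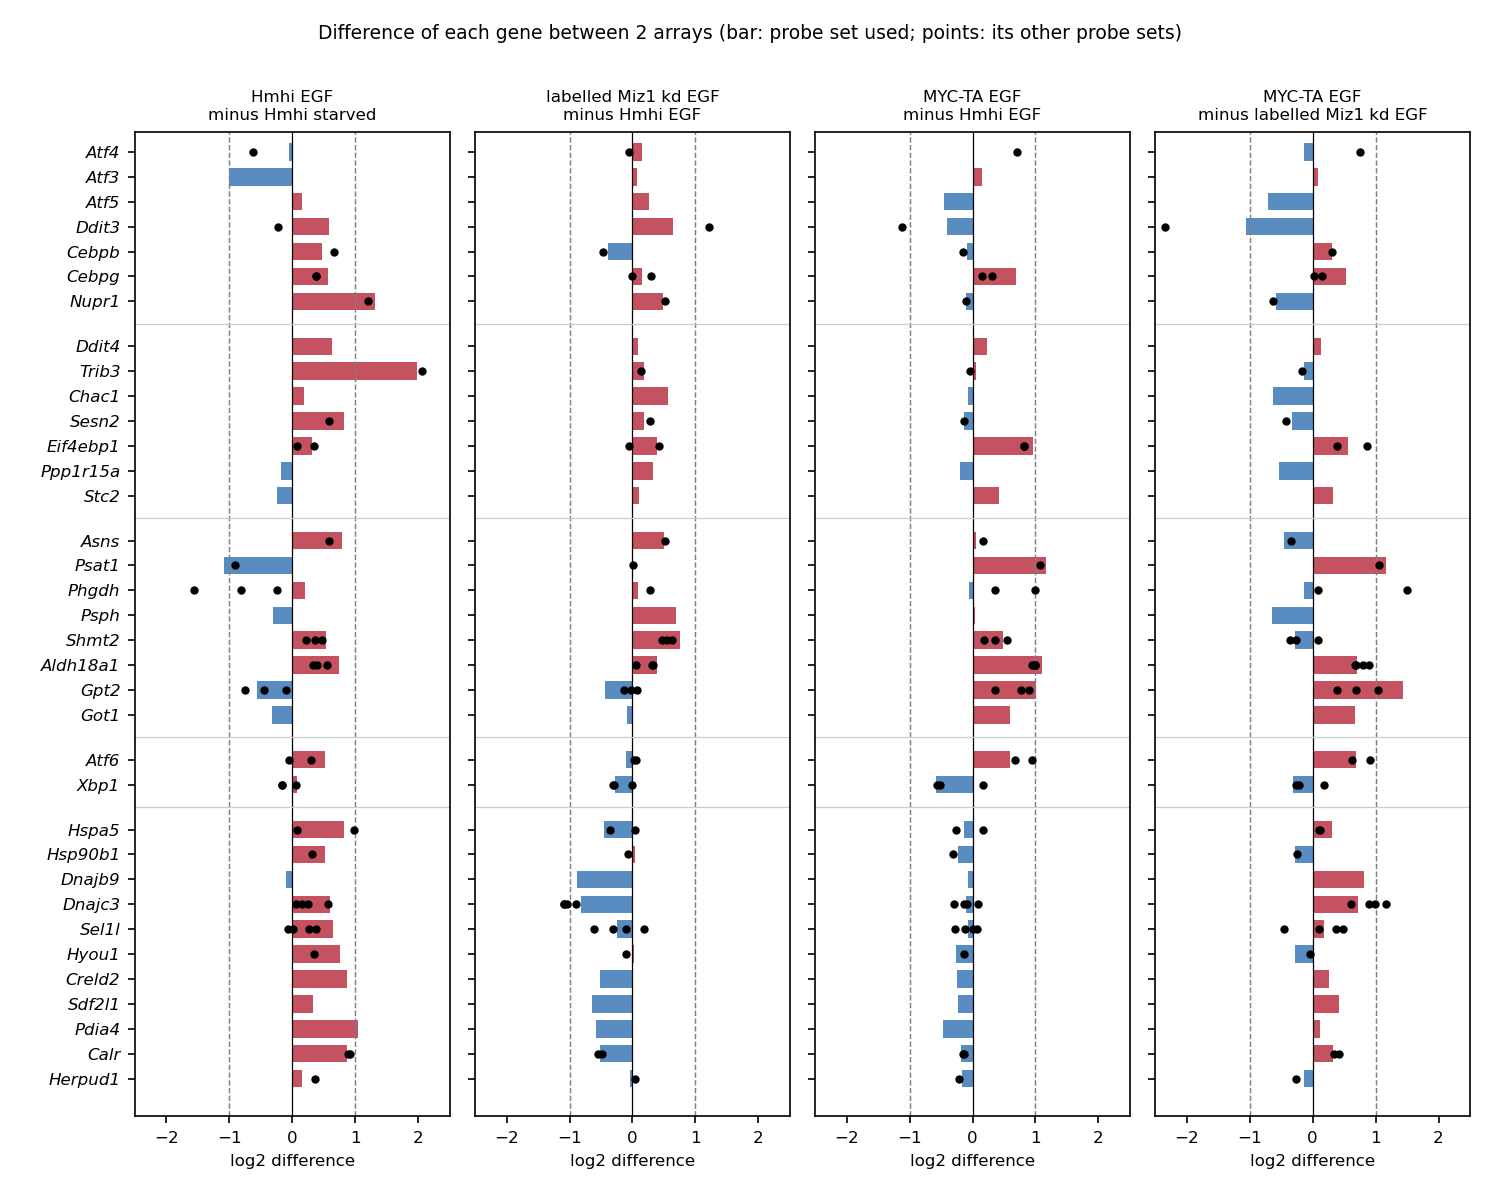
Log2 difference of each of the 35 genes (x axis) in the 4 comparisons (panels), ordered by role. Bars show the probe set used and points the other sets of the same gene that passed the level filter, and dashed lines mark 2-fold. Trib3 reaches 1.98 with EGF, ER chaperones point left in the second panel, and Psat1, Aldh18a1 and Gpt2 pass 2-fold in the third.

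Among the transcription regulators, Atf4 itself differed little on its brightest set. It read 12.69 in MYC-TA, 12.83 in the Miz1 kd-labelled array, 12.68 in Hmhi EGF and 12.73 in Hmhi starved. A dimmer set of Atf4 ending in _x_at differed more, with 10.90 in MYC-TA, 10.14 in the Miz1 kd-labelled array, 10.20 in Hmhi EGF and 10.82 in Hmhi starved, so the sets disagree. Ddit3, which encodes the pro-apoptotic factor CHOP, read 10.77 in MYC-TA, 11.82 in the Miz1 kd-labelled array, 11.18 in Hmhi EGF and 10.59 in Hmhi starved. It was highest in the Miz1 kd-labelled array, and lowest in Hmhi starved. Its dimmer set read 7.05 in MYC-TA, 9.39 in the Miz1 kd-labelled array, 8.18 in Hmhi EGF and 8.40 in Hmhi starved, so the sets share the top array but not the bottom one. Nupr1, a small stress-induced chromatin protein, read 10.47 in MYC-TA, 11.05 in the Miz1 kd-labelled array, 10.57 in Hmhi EGF and 9.26 in Hmhi starved. All 3 EGF arrays were above the starved one, and its second set differed by 1.20 between Hmhi EGF and Hmhi starved. Atf3, a stress-induced repressor and activator of the AP-1 superfamily, went the other way and read 9.21 in MYC-TA, 9.12 in the Miz1 kd-labelled array, 9.06 in Hmhi EGF and 10.06 in Hmhi starved, with the 3 EGF arrays close together and the starved array above them. Cebpg, a C/EBP partner of ATF4, read 11.08 in MYC-TA, 10.55 in the Miz1 kd-labelled array, 10.39 in Hmhi EGF and 9.83 in Hmhi starved, highest in MYC-TA. Cebpb, another C/EBP partner, read between 12.07 and 12.54. It was higher by 0.47 in Hmhi EGF than in Hmhi starved, and the Miz1 kd-labelled array differed from Hmhi EGF by -0.39. Its second set differed by 0.66 and -0.46. Atf5, a factor close to ATF4, was lowest in MYC-TA at 10.30 and highest in the Miz1 kd-labelled array at 11.01.

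Of the feedback and secreted effectors, Trib3 had the widest range. This pseudokinase, induced by ATF4 and CHOP, damps ATF4 activity and AKT signalling. It read 10.91 in MYC-TA, 11.05 in the Miz1 kd-labelled array, 10.86 in Hmhi EGF and 8.88 in Hmhi starved. The 3 EGF arrays lay within 0.19 of each other and all stood above the starved array, and the second set differed by 2.06 between Hmhi EGF and Hmhi starved. Sesn2, a sestrin that restrains mTORC1 on leucine shortage, read 8.50 in MYC-TA, 8.82 in the Miz1 kd-labelled array, 8.63 in Hmhi EGF and 7.81 in Hmhi starved. Ddit4 (REDD1), which inhibits mTORC1 through TSC, read 10.51 in MYC-TA, 10.38 in the Miz1 kd-labelled array, 10.29 in Hmhi EGF and 9.65 in Hmhi starved. For both, every EGF array was above the starved one. Eif4ebp1, which encodes the translation repressor 4E-BP1 and is a target of mTORC1, read 12.03 in MYC-TA, 11.47 in the Miz1 kd-labelled array, 11.08 in Hmhi EGF and 10.76 in Hmhi starved. It was highest in MYC-TA, and its 3 sets were higher there than in Hmhi EGF by 0.96, 0.82 and 0.82. Chac1, a glutathione-degrading enzyme, read 8.19 in MYC-TA, 8.83 in the Miz1 kd-labelled array, 8.26 in Hmhi EGF and 8.09 in Hmhi starved, and only the Miz1 kd-labelled array stood apart. Ppp1r15a (GADD34), which leads the phosphatase to eIF2, read 9.81 in MYC-TA, 10.35 in the Miz1 kd-labelled array, 10.01 in Hmhi EGF and 10.20 in Hmhi starved. Stc2, a secreted glycoprotein, read between 6.81 and 7.23, close to the array median, where background limits any difference.

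The amino acid and one-carbon enzymes differed in which arrays were high. Asns (asparagine synthetase), a much used readout of ATF4 activity, read 12.24 in MYC-TA, 12.69 in the Miz1 kd-labelled array, 12.19 in Hmhi EGF and 11.41 in Hmhi starved. It was lowest in Hmhi starved and highest in the Miz1 kd-labelled array, and both of its sets gave that order. In the serine pathway, Psat1, its aminotransferase, read 11.90 in MYC-TA, 10.73 in the Miz1 kd-labelled array, 10.73 in Hmhi EGF and 11.81 in Hmhi starved. MYC-TA and Hmhi starved were high, and the other 2 EGF arrays were low and equal. The second Psat1 set had the same pattern, with 11.68 in MYC-TA, 10.62 in the Miz1 kd-labelled array, 10.61 in Hmhi EGF and 11.52 in Hmhi starved. Psph, the phosphatase of the last step, instead read 10.82 in MYC-TA, 11.47 in the Miz1 kd-labelled array, 10.79 in Hmhi EGF and 11.10 in Hmhi starved, highest in the Miz1 kd-labelled array. Phgdh, which opens the serine pathway, read between 8.40 and 8.68 on its brightest set, but the sets disagreed. Those with differences of -0.81, -0.24 and -1.57 between Hmhi EGF and Hmhi starved stand against 0.20 on the brightest, so no direction is given for it. Shmt2, the mitochondrial enzyme that passes a serine carbon to folate, read 10.91 in MYC-TA, 11.18 in the Miz1 kd-labelled array, 10.43 in Hmhi EGF and 9.89 in Hmhi starved. All 4 of its sets were higher in the Miz1 kd-labelled array than in Hmhi EGF, by 0.47 to 0.76.

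Aldh18a1, which makes the proline precursor pyrroline-5-carboxylate, read 11.62 in MYC-TA, 10.92 in the Miz1 kd-labelled array, 10.53 in Hmhi EGF and 9.79 in Hmhi starved. It was lowest in Hmhi starved and highest in MYC-TA, and its 5 sets were above Hmhi EGF in MYC-TA by 0.95 to 1.10. Gpt2, the mitochondrial alanine aminotransferase, read 11.23 in MYC-TA, 9.79 in the Miz1 kd-labelled array, 10.22 in Hmhi EGF and 10.79 in Hmhi starved. MYC-TA was highest and the Miz1 kd-labelled array lowest. The other Gpt2 sets were above Hmhi EGF in MYC-TA by 0.36, 0.76 and 0.90. Got1, the cytosolic aspartate aminotransferase, read 10.39 in MYC-TA, 9.71 in the Miz1 kd-labelled array, 9.79 in Hmhi EGF and 10.12 in Hmhi starved. As for Psat1 and Gpt2, MYC-TA and Hmhi starved were the 2 higher arrays. Cth, which encodes cystathionase and is a known ATF4 target, is not on the list and read 8.31 in MYC-TA, 6.20 in the Miz1 kd-labelled array, 5.18 in Hmhi EGF and 4.34 in Hmhi starved, of which the last 3 were below the array median.

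**Figure D3:**
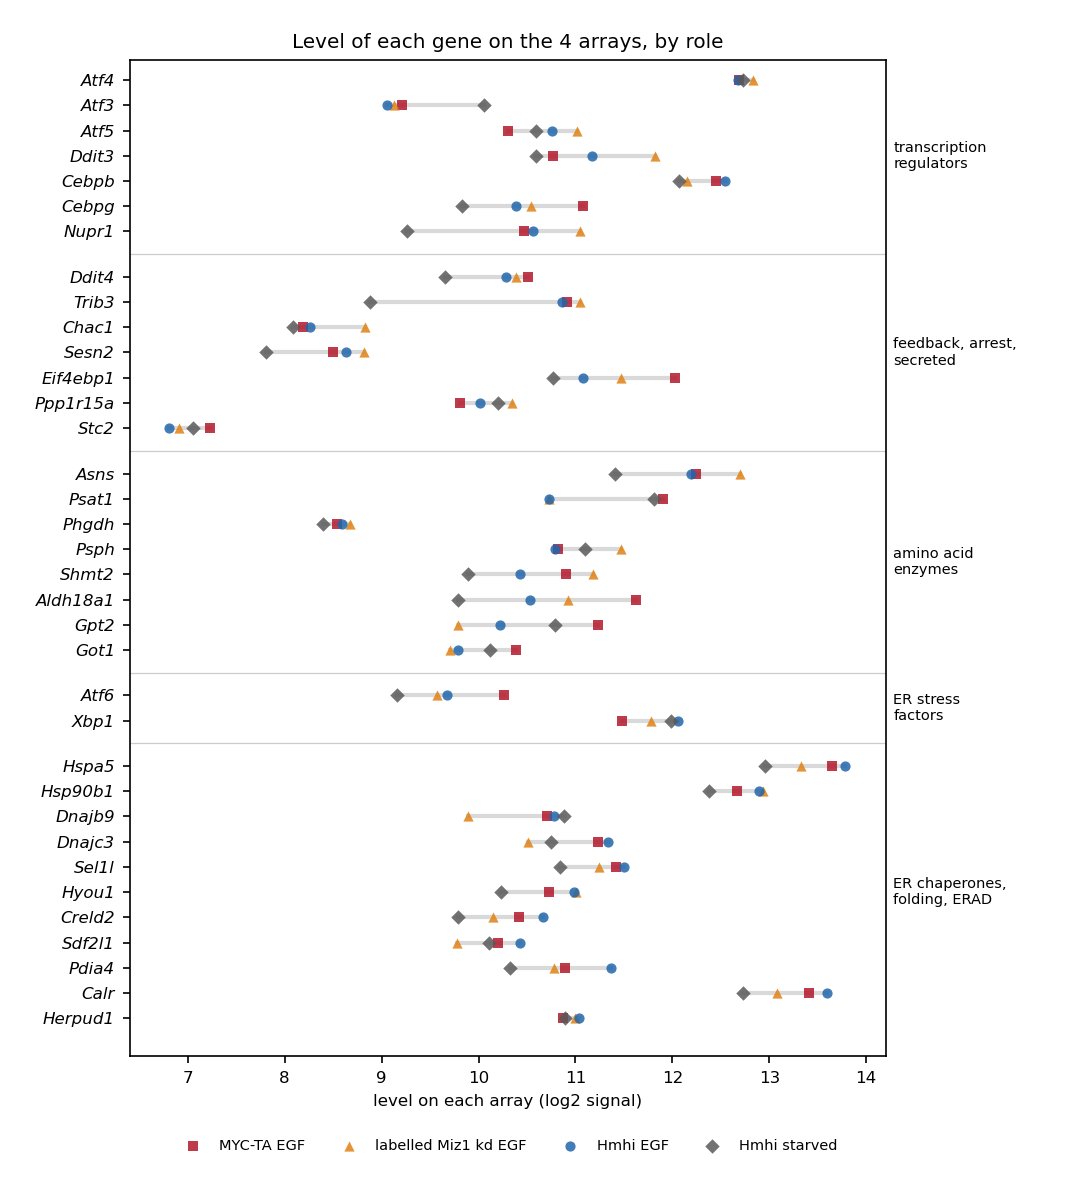
Level of each of the 35 genes (rows, grouped by role) on the 4 arrays, as log2 signal on the x axis, 1 symbol per array. Levels are comparable along a row but not between rows. Hmhi starved lies at the left end for most rows, and Hmhi EGF at the right end for most ER chaperones.

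The ER stress factors Xbp1 and Atf6 differed from each other. Xbp1 read 11.48 in MYC-TA, 11.78 in the Miz1 kd-labelled array, 12.05 in Hmhi EGF and 11.98 in Hmhi starved. It was lowest in MYC-TA, on 3 of its 4 sets, and the dimmest set, near the array median, differed from Hmhi EGF by 0.17 the other way. Atf6 read 10.26 in MYC-TA, 9.57 in the Miz1 kd-labelled array, 9.67 in Hmhi EGF and 9.16 in Hmhi starved. It was highest in MYC-TA, and its 3 sets were higher there than in Hmhi EGF by 0.59, 0.68 and 0.94.

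Of the 11 ER chaperones and their helpers, 10 were higher in Hmhi EGF than in the starved array, against 50.5% of all genes. By more than the technical SD, 8 of them were higher (72.7%, against 27.8% of all genes). Against Hmhi EGF, 9 of 11 were lower in the Miz1 kd-labelled array (47.5% of all genes), 8 of them by more than the technical SD (72.7%, against 23.0%). In MYC-TA all 11 had differences below 0 against Hmhi EGF (44.7% of all genes), but 9 lay within the technical SD. Pdia4 and Hyou1 alone passed it (18.2%, against 20.5% of all genes). Hspa5 (BiP), the main Hsp70 of the ER and a standard readout of the unfolded protein response, read 13.64 in MYC-TA, 13.33 in the Miz1 kd-labelled array, 13.78 in Hmhi EGF and 12.96 in Hmhi starved. Calr (calreticulin), a lectin chaperone for glycoproteins, read 13.41 in MYC-TA, 13.08 in the Miz1 kd-labelled array, 13.59 in Hmhi EGF and 12.72 in Hmhi starved, and its 3 sets differed between Hmhi EGF and Hmhi starved by 0.87 to 0.91. In both genes Hmhi EGF was highest, MYC-TA close below it, the Miz1 kd-labelled array between, and Hmhi starved lowest. The dimmest Hspa5 set, ending in _x_at, differed in sign for MYC-TA and for the Miz1 kd-labelled array, each against Hmhi EGF. Pdia4, a protein disulfide isomerase, read 10.89 in MYC-TA, 10.78 in the Miz1 kd-labelled array, 11.36 in Hmhi EGF and 10.32 in Hmhi starved. Creld2, a small secreted ER stress protein with isomerase activity, read 10.42 in MYC-TA, 10.15 in the Miz1 kd-labelled array, 10.67 in Hmhi EGF and 9.79 in Hmhi starved. They shared the position of Hmhi EGF at the top and Hmhi starved at the bottom. Hsp90b1 (GRP94), the Hsp90 of the ER, read 12.66 in MYC-TA, 12.94 in the Miz1 kd-labelled array, 12.89 in Hmhi EGF and 12.38 in Hmhi starved. Hyou1, a large Hsp70-like exchange factor for BiP, read 10.72 in MYC-TA, 11.00 in the Miz1 kd-labelled array, 10.98 in Hmhi EGF and 10.24 in Hmhi starved. On these sets the Miz1 kd-labelled array and Hmhi EGF were level, and a dimmer set of each gene gave the opposite sign there.

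The DnaJ partners of BiP had the largest differences among the members for the Miz1 kd-labelled array against Hmhi EGF. Dnajb9 (ERdj4) read 10.71 in MYC-TA, 9.90 in the Miz1 kd-labelled array, 10.78 in Hmhi EGF and 10.88 in Hmhi starved, and the Miz1 kd-labelled array was the low one. Dnajc3 (p58IPK), which also restrains the kinase PERK, read 11.23 in MYC-TA, 10.51 in the Miz1 kd-labelled array, 11.34 in Hmhi EGF and 10.75 in Hmhi starved. All 5 Dnajc3 sets were lower in the Miz1 kd-labelled array than in Hmhi EGF, with differences from -1.09 to -0.83. Sdf2l1, an ER protein that works with these DnaJ proteins, read 10.20 in MYC-TA, 9.78 in the Miz1 kd-labelled array, 10.42 in Hmhi EGF and 10.10 in Hmhi starved, again lowest in the Miz1 kd-labelled array. In ER-associated degradation, Sel1l, the adaptor of the HRD1 ligase, read 11.42 in MYC-TA, 11.25 in the Miz1 kd-labelled array, 11.50 in Hmhi EGF and 10.85 in Hmhi starved, but its dimmer sets differed in sign in every comparison. Herpud1, which recruits ubiquilin to that ligase, hardly differed, with levels between 10.87 and 11.04.

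Hmhi EGF was the highest of the 4 arrays for 8 of these 11 genes, as it was for 11.6% of all 11805 genes at or above the median on any array. The first 3 comparisons use that array. In comparisons without it, chaperone levels were also above Hmhi starved, with a median of 0.49 and 9 of 11 genes higher in MYC-TA, and a median of 0.36 and 8 of 11 genes higher in the Miz1 kd-labelled array. The medians over all genes were 0.06 and 0.02, and 54.9% and 51.1% of all genes were higher. These values were computed after the others had been seen, on the brightest sets alone, and both EGF and the cell line differ in them.

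In all, 6 further lists of the same pathways, chosen with earlier results of these data known, were read beside the members. They were read on the brightest set of each gene alone, and the alternatives run for the members were not run for them. Of 18 other ER folding enzymes and chaperones, all 18 were higher with EGF than in Hmhi starved, against 50.5% of all genes. Their median was 0.75, and 4 were at least 2-fold higher (22.2%, against 7.98%). Ppib (cyclophilin B) led at 1.51, before Pdia6 at 1.27 and Fkbp2, an ER prolyl isomerase, at 1.20. In the Miz1 kd-labelled array 16 of the 18 were lower than in Hmhi EGF (47.5% of all genes), with a median of -0.29. By more than the technical SD, 10 of them were lower (55.6%, against 23.0% of all genes). Fkbp2 was 2-fold lower at -1.19 (5.56%, against 2.5%). Fkbp2 was in turn higher in MYC-TA than in that array by 1.71, the 1 gene of the list 2-fold higher there (5.56%, against 6.72%). The 14 translocon and signal peptidase genes had a median of 0.37 with EGF, with Ssr2 and Sec11a 2-fold higher at 1.21 and 1.09, and a median of -0.34 in the Miz1 kd-labelled array. Of 15 other ERAD genes that passed the filter, 0 were 2-fold apart in either direction with EGF, and their median was -0.02.

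On the ATF4 side, 14 other genes described as its targets had a median of 0.24 with EGF. Of these, 3 were at least 2-fold higher (21.4%, against 7.98% of all genes). Vldlr, a lipoprotein receptor, was higher by 2.91, Slc7a11, the cystine importer, by 2.15 and Pck2, the mitochondrial phosphoenolpyruvate carboxykinase, by 1.60. Slc7a11 read 5.21 in Hmhi starved, below the array median, so background limits its difference. Ndrg1, a gene also induced by hypoxia, was the 1 gene 2-fold lower, at -1.45 (7.14%, against 4.96% of all genes). The 19 aminoacyl-tRNA synthetases, of which several are ATF4 targets, had a median of 0.32 with EGF, 0.26 in the Miz1 kd-labelled array and 0.21 in MYC-TA against Hmhi EGF, with 0 genes 2-fold apart in any of them. The shares of all genes 2-fold higher and lower were 7.98% and 4.96%, 0.29% and 2.5%, and 1.3% and 1.65% in the same order. Of the 19, 18 were above Hmhi EGF in the Miz1 kd-labelled array (52.3% of all genes) and 16 in MYC-TA (55.1%), while the medians were about the size of the technical SD. In the Miz1 kd-labelled array 12 were above Hmhi EGF by more than that SD (63.2%, against 21.6% of all genes). In MYC-TA 9 were (47.4%, against 26.3%). The 16 stress sensors and eIF2 genes had a median of -0.06 with EGF and 0.24 in MYC-TA against Hmhi EGF. Among them Eif2ak3, which encodes the sensor kinase PERK, read 10.10 in MYC-TA, 11.43 in the Miz1 kd-labelled array, 11.15 in Hmhi EGF and 10.33 in Hmhi starved. It was 2-fold lower in MYC-TA against both of the other EGF arrays, at -1.06 and -1.33. Ern1, which encodes IRE1, was lower in MYC-TA than in the Miz1 kd-labelled array, at -1.15, and Atf6b was higher, at 1.06. Of the 16, 1 was 2-fold lower in MYC-TA against Hmhi EGF (6.25%, against 1.65% of all genes). Against the Miz1 kd-labelled array, 2 were 2-fold lower (12.5%, against 4.26%) and 1 was higher (6.25%, against 6.72%).

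**Figure D4:**
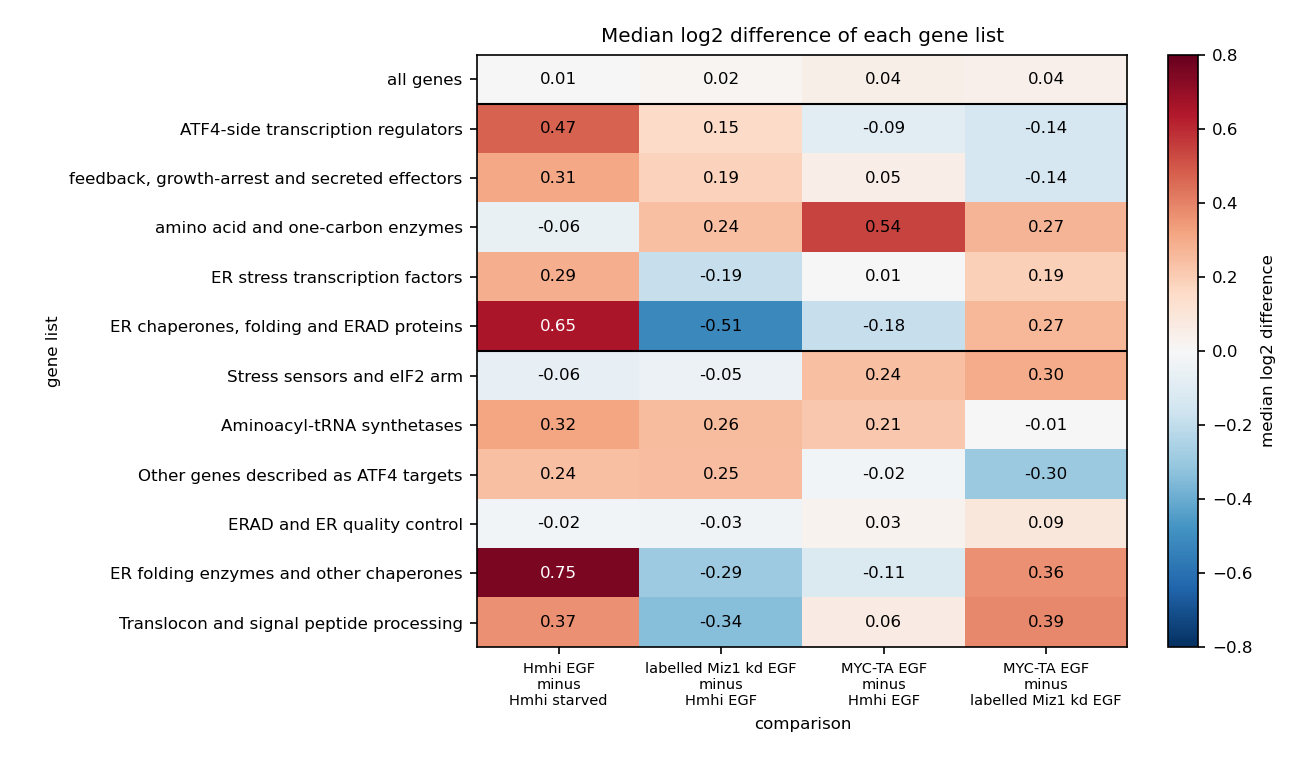
Median log2 difference (colour and number) of all genes that passed the level filter, of the 5 roles of the members and of the 6 further lists, in rows, for the 4 comparisons, in columns. ER chaperones and folding enzymes are at 0.65 and 0.75 with EGF and at -0.51 and -0.29 in the Miz1 kd-labelled array, and the amino acid enzymes are highest for MYC-TA minus Hmhi EGF, at 0.54.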

How the data were processed

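Total RNA of 4 melan-a cultures was hybridized to Affymetrix arrays, 1 per condition, from 100 ng of RNA, per the labels' protocols. The authors deposited 1 value for each of 45101 probe sets. The deposited values run between 2.94 and 15.12 and were treated as log2 signals. Summarization, normalization and log base are not given in the sources used here. The sorted columns of the arrays matched within 0.004, so a change common to all genes is invisible. The number of arrays limits the precision.

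The platform annotation names 1 gene for 34945 probe sets, and the brightest set on average stood for each of 18193 genes. Genes were compared where the higher of the 2 arrays reached its median of non-control sets. Differences, medians and counts past 2-fold were computed with no test. The technical SD is that between probe sets of 1 gene.

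The members, roles, lists and alternatives were chosen with earlier results of these data known. Every member was to be named. Outside the list, Zbtb17, Myc, Cth and up to 3 genes per further list and comparison at least 2-fold apart were named. Ndrg1 and the single marker genes were added after their values were seen. Alternatives were a common median, loess (span 0.4), other level filters (none, or 75th percentile), the probe set mean, plain _at sets and a 1.5-fold threshold. The steps were tested on simulated data. Python 3.11.15, pandas 2.3.3, numpy 2.4.6, statsmodels 0.14.6 and matplotlib 3.10.9 were used. Promoters are RefSeq's (GRCm38.p6).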

Additional observations from a re-analysis of the deposited data

How the results depend on the processing

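No paired analysis was possible because there was 1 array per group, which also meant that leaving out arrays could not be tried. Alternatives for the role medians were chosen after seeing the data. No gene at least 2-fold apart changed sign in that comparison under the alternatives run. Single members' values moved by more than the technical SD in 15 of 138 cases with the mean of all sets, in 6 of 108 with plain _at sets and in 0 of 140 with loess. A common median and a changed level filter could not test them, as the columns already matched and a filter leaves a gene's own difference as it is. Dropping the filter could change no member count either, since all 35 genes pass it. The mean of all sets could not move the 10 members with 1 probe set. Plain _at sets could not move the 21 members already read on such a set. Those cases were fixed in advance and are counted among the 138 and the 108.

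Counts moved most with the threshold. At 1.5-fold, 13 members were higher with EGF, 3 were higher and 3 lower in the Miz1 kd-labelled array against Hmhi EGF, 7 were higher in MYC-TA against Hmhi EGF, and 7 were higher and 4 lower in MYC-TA against the Miz1 kd-labelled array. With plain _at sets, which leave 27 members, 1 was 2-fold higher and 1 lower with EGF, 0 were higher in MYC-TA against Hmhi EGF and 1 against the Miz1 kd-labelled array. With the mean of all sets, 2 were 2-fold higher and 1 lower with EGF, 2 were higher in MYC-TA against Hmhi EGF and 1 against the Miz1 kd-labelled array. With loess, 1 was 2-fold lower with EGF and 2 were higher in MYC-TA against Hmhi EGF, as Gpt2 fell just short. Shares over all genes are given above for the 2-fold and 1.5-fold thresholds only. The counts with plain sets, the mean of sets and loess therefore stand without a background.

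Among medians, the mean of all sets gave ER chaperones 0.32 and all members 0.29 (0.35 with plain sets) with EGF, and chaperones -0.26 in the Miz1 kd-labelled array against Hmhi EGF. The 75th percentile filter gave the enzymes 0.68 in MYC-TA against the Miz1 kd-labelled array. Medians near 0 changed sign. Plain sets gave the enzymes 0.077 with EGF, and gave 0.015 for all members and 0.015 for the regulators in MYC-TA against Hmhi EGF. There the median of Atf6 and Xbp1 was 0.38 with plain sets and -0.019 with loess. In MYC-TA against the Miz1 kd-labelled array, the regulators were at 0.089 with the mean of all sets and 0.089 with plain sets, and the ATF4 side at 0.11 and 0.089. Beyond the fewer members under plain sets and the stricter filter, the cause was not tested. Stc2, Slc7a11 and Cth lay close to or below the array median in at least 1 array, where signal over background limits their differences.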

Other observations

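Set against Hmhi starved, both other EGF arrays also had the list higher. The median over the 35 genes was 0.44 in MYC-TA, with 27 higher, and 0.37 in the Miz1 kd-labelled array, with 26 higher. Of all genes, 54.9% were higher in MYC-TA and 51.1% in the Miz1 kd-labelled array. EGF and the cell line both differ in these comparisons, and they share the starved array. Hmhi starved had the lowest level of the 4 arrays for 21 of 35 genes (60.0%), as it had for 34.7% of 11805 genes. The Miz1 kd-labelled array had the highest level for 12 of the 22 genes on the ATF4 side (54.5%), as it had for 28.6% of all genes. Trib3 was 2.03 higher in MYC-TA and 2.17 higher in the Miz1 kd-labelled array than in Hmhi starved, and Aldh18a1 was 1.84 and 1.13 higher.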
